A study of Gallus gallus with 6 samples.

Results

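The transcription factors described here are 10 regulators of heart formation: the Iroquois factor IRX4, the T-box factors TBX2, TBX3, TBX5, TBX18 and TBX20, the homeobox factor NKX2-5 and the GATA factors GATA4, GATA5 and GATA6. They were taken by gene name from a table of 6919 RefSeq transcripts, in which 9 of the 10 have a row, with 1 transcript each. TBX2 has no row under that name and was not analysed here. RNA was sequenced from 3 OFT-banded and 3 sham hearts of Dekalb white chick embryos at HH29. In OFT-banded embryos a nylon suture was knotted around the outflow tract (OFT) at HH21 and stayed in place until harvest. In sham embryos of the same strain, opened at the same stage, the suture was passed through and removed at once. Each library came from 1 whole heart, depleted of globin RNA in both groups, so the values average over chambers, septum, outflow tract and blood. The labels enter outflow tract as the sample type of the banded hearts, whereas the methods describe whole hearts; atrial and ventricular myosin heavy chains were abundant in all 6 libraries, as given further on. The groups were compared to ask how a raised pressure load alters gene expression in the developing heart.

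T-box, GATA and NK2 homeobox proteins bind DNA in the regulatory regions of heart muscle genes, often next to each other, and switch on the chamber programme together. TBX5, TBX20, NKX2-5 and the GATA factors act as activators of this programme, whereas TBX2 and TBX3 hold it back in the atrioventricular canal, the outflow tract and the nodes of the conduction system. IRX4 is restricted to ventricular muscle, and in the chick it promotes the ventricular and limits the atrial myosin heavy chain.

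Values are RPKM, reads per kilobase of transcript and per 1000000 reads, so levels of different genes are set side by side after allowing for length and depth only. The paper reports that the sequenced RNA was partly degraded by repeated freezing and thawing and by globin depletion. Whether this affected genes unequally was not tested. From the whole-read steps of short microRNA rows, 1 RPKM corresponded to 30.1, 41.2 and 36.1 reads per kilobase of transcript in OFT-banded hearts 6, 11 and 17, and to 32.5, 37.5 and 21.0 in sham hearts 38, 48 and 42. The fewest reads of the whole set, those of TBX3 in heart 42, thus came to 158 per kilobase, a counting error of 7.95% for a transcript of 1 kilobase, and for GATA5, NKX2-5 and IRX4 this error was at most 1.00% in any heart. Differences in log2(RPKM + 1) were tested with limma on the 4726 transcripts whose mean reached 1 RPKM, among them all 9 factors, and p-values were adjusted over all of these by the Benjamini-Hochberg method. Of these transcripts 0 (0%) passed at an adjusted p under 0.05 and 405 (8.57%) at an unadjusted one, 155 of them higher (3.28% of those tested) and 250 lower (5.29%) in OFT-banded hearts. Median-ratio scaling between hearts changed this split to 231 higher and 175 lower. For 3 hearts against 3, the smallest two-sided p of an exact permutation test is 0.1.

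TBX3 was the 1 factor of the set that the study also chose for a qPCR assay. Its primers are shown to identify that assay, whose readings were not used here; they are written 5′ to 3′ in lower case, with no part marked.
TBX3 forward primer: agtgcacctggaagccaaaga
TBX3 reverse primer: gtcgtcagccgccacaatatc

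The 9 factors covered a wide range of levels. GATA5 was the most abundant, at a mean of 532 RPKM over the 6 hearts, above 95.6% of tested transcripts. NKX2-5 followed at 464 RPKM and IRX4 at 405 RPKM. These 3 form a top group whose ranges over the hearts overlapped between neighbours, with GATA5 above NKX2-5 in 5 of 6 hearts and NKX2-5 above IRX4 in 5 of 6. TBX5, at 215 RPKM, lay below IRX4 in 6 of 6 hearts, and its highest heart, at 242.48 RPKM, did not reach the lowest of IRX4, at 342.84 RPKM. GATA4, at 124 RPKM, and GATA6, at 72.9 RPKM, came next, each separated from its neighbours in every heart. TBX18, at 27.1 RPKM, and TBX20, at 17.2 RPKM, overlapped in range although TBX18 was the higher in 6 of 6 hearts. TBX3 was the least abundant, at 8.02 RPKM, above 22.4% of tested transcripts, and lay below TBX20 in 5 of 6 hearts.

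**Figure D1:**
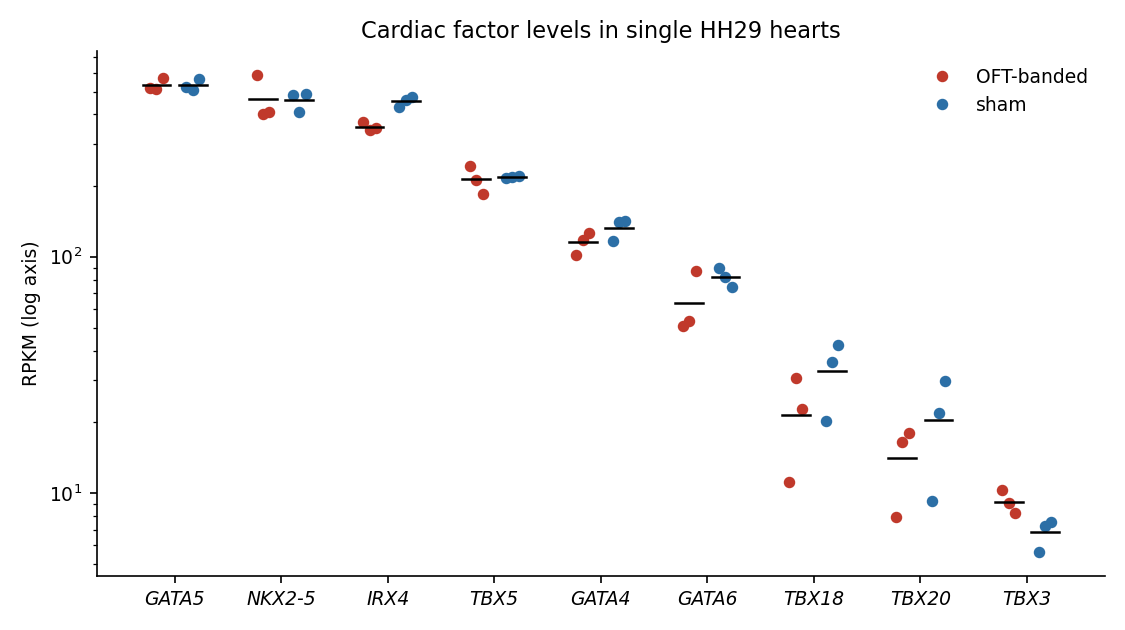
Level of each factor in RPKM (log axis) in single hearts, with OFT-banded hearts as red points on the left, sham hearts as blue points on the right and group means as black bars. IRX4 and TBX3 are the factors whose groups did not overlap, with IRX4 lower and TBX3 higher in OFT-banded hearts.

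IRX4 (NM_001001744), the ventricular factor, was at 371.68, 342.84 and 351.42 RPKM in OFT-banded hearts 6, 11 and 17, against 430.27, 460.77 and 474.71 RPKM in sham hearts 38, 48 and 42. All 3 OFT-banded hearts lay below all 3 sham hearts, and within each group the highest heart exceeded the lowest by 1.08-fold and 1.10-fold. The mean was 355 ± 14.8 RPKM in OFT-banded hearts, against 455 ± 22.7 RPKM in sham hearts (± SD of 3 hearts), a ratio of 0.780. The log2 difference was -0.36 (standard error 0.08, 95% interval -0.54 to -0.18), with an unadjusted p = 0.00214, the 16th smallest of the 4726, and an adjusted p = 0.543 from limma. It therefore did not pass over all genes. By exact permutation the two-sided p was 0.1, the smallest possible. IRX4 was lower under each of the 18 alternative settings tried, with log2 differences between -0.62 and -0.29. Adjusted p lay between 0.255 and 0.985 from limma, and no scaling of the hearts made the groups overlap. Many of these settings could not turn its sign. Filters and moderation leave the difference itself unchanged, and groups that do not overlap stay apart when hearts are left out.

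IRX4 lies in a cluster with IRX2 and IRX1, which are the next protein-coding genes on one side of it in the GRCg7b gene table, with NDUFS6 next on the other side. IRX2 was at 1.41, 1.93 and 2.69 RPKM in OFT-banded hearts, against 2.77, 4.29 and 0.89 RPKM in sham hearts. IRX1 was at 22.75, 15.25 and 9.63 RPKM in OFT-banded hearts, against 15.84, 17.87 and 16.64 RPKM in sham hearts. Neither separated the groups, with log2 differences of -0.18 for IRX2 (95% interval -1.09 to 0.73) and -0.15 for IRX1 (95% interval -0.79 to 0.49). IRX1, the next most abundant of the cluster, was thus at a small fraction of the IRX4 level in every heart.

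The myosin heavy chains linked to IRX4 in the chick, chosen after their values were seen, overlapped between the groups. MYH15, the ventricular chain VMHC1, was at 2410.32, 2781.47 and 3227.77 RPKM in OFT-banded hearts and 2183.47, 3363.12 and 2158.24 RPKM in sham hearts (adjusted p = 0.756 from limma). MYH7, the atrial chain AMHC1, was at 263.16, 229.50 and 283.19 RPKM in OFT-banded hearts and 365.69, 316.14 and 218.45 RPKM in sham hearts (adjusted p = 0.692 from limma). Their log2 differences were 0.15 (95% interval -0.32 to 0.62) for MYH15 and -0.19 (95% interval -0.63 to 0.26) for MYH7.

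By the root mean square gap between profiles of log2(RPKM + 1), each centred on its own mean over the 6 hearts, the tested transcripts most like IRX4 were SLC24A5, an ion exchanger (0.0449), and CTSA, a lysosomal carboxypeptidase (0.0450). CTSA was at 118 ± 2.68 RPKM in OFT-banded hearts, against 145 ± 2.22 RPKM in sham hearts (± SD of 3 hearts). Among the factors themselves the closest to IRX4 was GATA4, at 0.152. The first search ran over all tested transcripts and the second over the few other factors, so these gaps cannot be set against each other.

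TBX3 (NM_001270878), the repressor of the chamber programme in the conduction system, was at 10.31, 9.06 and 8.25 RPKM in OFT-banded hearts, against 5.64, 7.27 and 7.56 RPKM in sham hearts. The lowest OFT-banded heart exceeded the highest sham heart, and the gap between the nearest hearts of the groups, 17 and 42, was smaller than the range within either group. The mean was 9.21 ± 1.04 RPKM in OFT-banded hearts, against 6.82 ± 1.03 RPKM in sham hearts (± SD of 3 hearts), a ratio of 1.35. The log2 difference was 0.39 (standard error 0.16, 95% interval 0.02 to 0.76), with an unadjusted p = 0.0430, an adjusted p = 0.543 from limma and an exact permutation p of 0.1. The difference was above 0 under all 18 alternatives, from 0.15 to 0.48, many of which could not turn its sign, as for IRX4. Its unadjusted p from limma lay under 0.05 in 9 of them. The log2 difference was 0.27 without heart 38, the lowest sham heart, and 0.31 without heart 6, the highest OFT-banded heart.

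The transcripts with a profile most like TBX3 were DAG1, the laminin receptor dystroglycan (0.0619), C12orf75 (0.0777) and CTD-2116N17.1 (0.0885). DAG1 was at 111 ± 6.26 RPKM in OFT-banded hearts, against 83.5 ± 11.8 RPKM in sham hearts (± SD of 3 hearts). Of the other factors TBX5, which adjoins TBX3 in the GRCg7b gene table, had the smallest gap, at 0.243. TBX5 did not share the split by group, since its groups overlapped at a log2 difference of -0.04. Whether the neighbours vary together was not tested. As for IRX4, the gap of 0.243 comes from a far smaller pool and cannot be set against those of the 3 transcripts.

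TBX5 (NM_204173), an activator of atrial and left ventricular genes, was at 242.48, 210.84 and 183.57 RPKM in OFT-banded hearts and 214.89, 218.13 and 219.86 RPKM in sham hearts. The OFT-banded hearts surrounded the sham hearts, which lay within 1.02-fold of each other, while the OFT-banded ones spanned 1.32-fold. The means were 212 ± 29.5 RPKM in OFT-banded hearts, against 218 ± 2.52 RPKM in sham hearts (± SD of 3 hearts), with a log2 difference of -0.04 (95% interval -0.30 to 0.21, adjusted p = 0.870 from limma). The sign turned with median-ratio scaling (0.021) and without heart 17 (0.055).

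TBX20 (NM_204144), which in the mouse keeps TBX2 out of the chambers, was at 7.93, 16.45 and 17.87 RPKM in OFT-banded hearts and 9.28, 21.92 and 29.87 RPKM in sham hearts. Hearts 6 and 38, 1 of each group, were the low ones, and heart 42 was the high one. The range from the lowest to the highest heart was 3.77-fold, and the coefficient of variation of 47.4% exceeded that of 94.7% of tested transcripts, whose median was 13.6%. The means were 14.1 ± 5.38 RPKM in OFT-banded hearts, against 20.4 ± 10.4 RPKM in sham hearts (± SD of 3 hearts). The log2 difference was -0.44 (95% interval -1.49 to 0.62, adjusted p = 0.696 from limma), an interval that spans 0.356-fold to 1.54-fold. It was -0.09 without heart 6, -0.10 without heart 42 and -0.89 without heart 38, where the groups did not overlap and the unadjusted p was 0.0364 (adjusted p = 0.347 from limma).

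TBX18 (NM_204453), a factor of the epicardium and, in the mouse, of the sinus horns that bear the sinus node, was at 11.14, 30.72 and 22.60 RPKM in OFT-banded hearts and 20.13, 36.02 and 42.21 RPKM in sham hearts. Heart 6 was again the lowest and heart 42 the highest, a range of 3.79-fold. The means were 21.5 ± 9.84 RPKM in OFT-banded hearts, against 32.8 ± 11.4 RPKM in sham hearts (± SD of 3 hearts). The log2 difference of -0.63 was the largest in size among the 9 factors in the fit as reported, yet its 95% interval, -1.56 to 0.30, included 0 (adjusted p = 0.588 from limma). Without heart 6 the difference was -0.24, and with hearts 6 and 42 left out together, an alternative added once the values were known, it was -0.03. Without heart 11 it was -0.93, and without heart 38 it was -0.94 with no overlap and an unadjusted p = 0.0447 (adjusted p = 0.356 from limma).

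NKX2-5 (NM_205164), the homeobox factor present throughout the heart muscle, was at 589.97, 400.21 and 408.51 RPKM in OFT-banded hearts and 485.33, 409.10 and 488.08 RPKM in sham hearts. Heart 6, low in TBX20 and TBX18, was the highest in NKX2-5. The means were 466 ± 107 RPKM in OFT-banded hearts, against 461 ± 44.8 RPKM in sham hearts (± SD of 3 hearts), with a log2 difference of -0.00 (95% interval -0.39 to 0.38, adjusted p = 0.997 from limma). Its sign changed in 5 of the 18 alternatives.

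GATA5 (NM_205421), a zinc finger factor of endocardium and heart muscle, was the steadiest of the set, at 515.33, 512.69 and 571.22 RPKM in OFT-banded hearts and 522.93, 506.65 and 565.99 RPKM in sham hearts. Its coefficient of variation was 5.36%, higher than that of only 7.22% of tested transcripts. The log2 difference was 0.00, with a 95% interval of -0.19 to 0.20 (adjusted p = 0.994 from limma), which spans 0.874-fold to 1.15-fold, and its sign changed in 6 of the 18 alternatives.

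GATA4 (NM_001293106), a partner of NKX2-5 and TBX5 at heart muscle genes, was at 101.95, 118.00 and 126.28 RPKM in OFT-banded hearts and 116.75, 139.68 and 141.05 RPKM in sham hearts. Heart 38 was the sham heart that reached into the OFT-banded range. The means were 115 ± 12.4 RPKM in OFT-banded hearts, against 132 ± 13.7 RPKM in sham hearts (± SD of 3 hearts), with a log2 difference of -0.20 (95% interval -0.47 to 0.07, adjusted p = 0.564 from limma). It was below 0 under all 18 alternatives, from -0.46 to -0.00.

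GATA6 (NM_205420), which acts in muscle and in the outflow tract, was at 50.76, 53.37 and 86.82 RPKM in OFT-banded hearts and 89.70, 82.49 and 74.31 RPKM in sham hearts. Hearts 6 and 11 were low, whereas heart 17 lay among the sham hearts. The means were 63.7 ± 20.1 RPKM in OFT-banded hearts, against 82.2 ± 7.70 RPKM in sham hearts (± SD of 3 hearts), with a log2 difference of -0.40 (95% interval -0.88 to 0.08, adjusted p = 0.543 from limma). It was below 0 under all 18 alternatives, from -0.66 to -0.26, and without heart 17 the groups did not overlap and it was -0.64.

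None of the 9 factors had an adjusted p under 0.05 in limma, as was so for all 4726 tested transcripts. The paper tested the same hearts with DESeq and did report genes with a corrected p under 0.05. The absence of called transcripts is thus an outcome of limma on RPKM. An unadjusted p under 0.05 was found for 2 of 9, IRX4 and TBX3 (22.2%). Over all tested transcripts it was found for 405 (8.57%), and the difference between these shares was not tested. The groups did not overlap for these 2 of 9 factors (22.2%), beside 768 of the 4726 tested transcripts (16.3%). In single directions, 1 of 9 was lower without overlap (background 11%) and 1 of 9 higher without overlap (background 5.23%), so the count is near the background. By value 7 of 9 (77.8%) were lower in OFT-banded hearts, beside 2985 of all tested transcripts (63.2%, with 36.8% higher), and the median log2 difference was -0.20, beside -0.07 over all tested transcripts. In whole hearts, fewer cells that express a factor and less of its RNA per cell cannot be told apart.

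**Figure D2:**
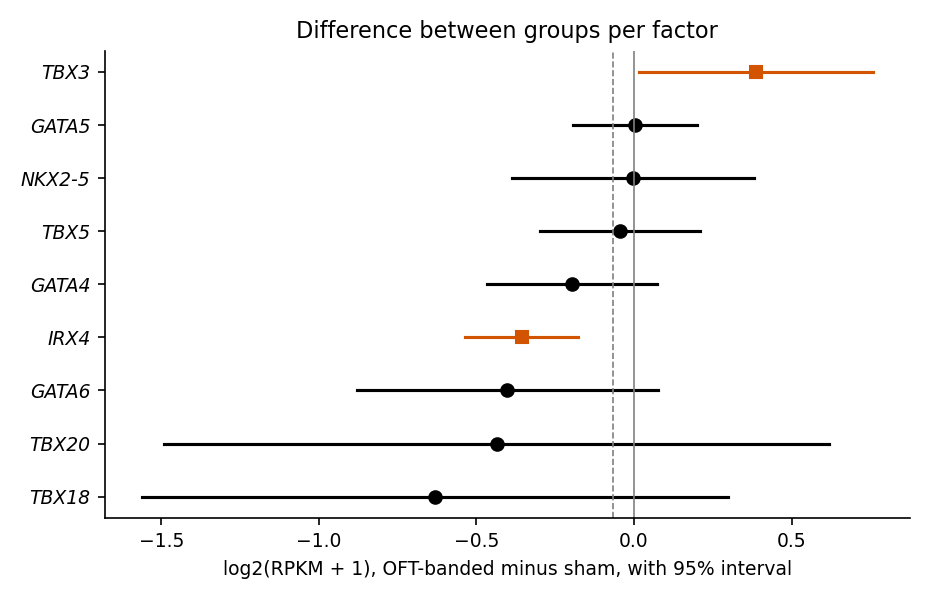
Difference in log2(RPKM + 1) between OFT-banded and sham hearts for each factor, with the 95% interval from limma; orange squares mark factors whose groups did not overlap, the solid line marks 0 and the dashed line the median of all tested transcripts, -0.07. The intervals of IRX4 and TBX3 leave out 0 before adjustment, and those of TBX18 and TBX20 are the widest.

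From heart to heart, TBX18 and TBX20 had the widest spread of the set and were each the closest of the factors to the other, with a root mean square gap of 0.25. TBX5 and NKX2-5 were likewise each closest to the other, at 0.137, and both were highest in heart 6. GATA4 and GATA5 were each closest to the other, at 0.148, and GATA4 was also the closest to IRX4 and to GATA6.

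On the first principal component of log2(RPKM + 1) over all tested transcripts, which held 54.7% of the variance, heart 6 stood lowest at -23.53, followed by heart 38 at -8.72, hearts 11 and 17, heart 48 at 10.35 and heart 42 at 18.74. TBX20 and GATA4 put the 6 hearts in exactly this order, as did 226 of the 4726 tested transcripts (4.78%), and no factor put them in the opposite order (background 1.21%). When this component entered the fit as a covariate, also added once the values were known, the log2 difference was 0.23 for TBX20, -0.06 for TBX18 and -0.06 for GATA4, against -0.35 for IRX4 and 0.41 for TBX3. The difference of TBX20 turned in sign, while those of IRX4 and TBX3 stayed close to their values without the covariate. The component was computed from these same transcripts, and TBX20 follows its order of hearts while IRX4 and TBX3 split by group. This contrast was therefore largely set in advance, and nothing is concluded from it.

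**Figure D3:**
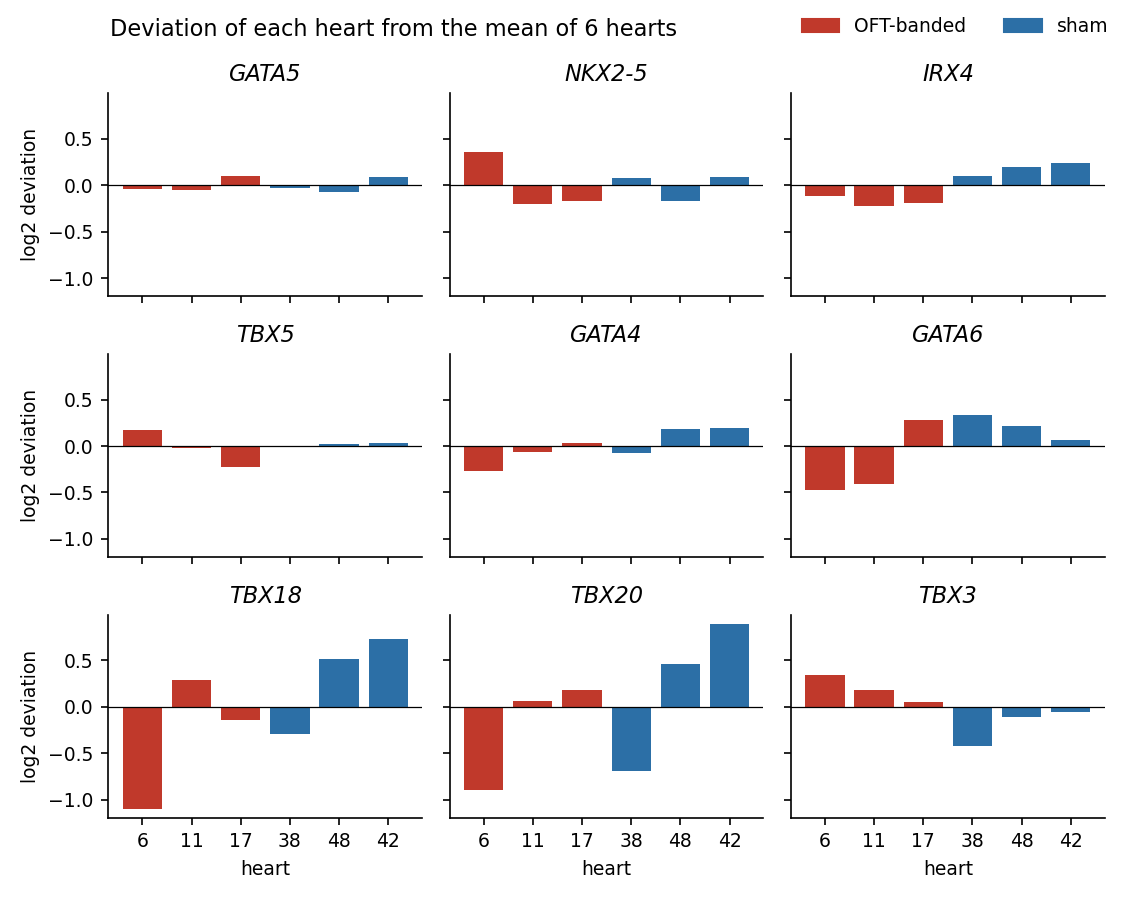
Deviation of log2(RPKM + 1) in each heart from the mean of the 6 hearts, with OFT-banded hearts 6, 11 and 17 in red on the left and sham hearts 38, 48 and 42 in blue on the right. TBX18 and TBX20 are lowest in heart 6 and highest in heart 42, IRX4 and TBX3 split by group, and GATA5 is nearly flat.

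Ratios of factors were then taken within each heart, which removes any scaling of that heart. IRX4 was 1.53, 1.63 and 1.91 times as abundant as TBX5 in OFT-banded hearts, against 2.00, 2.11 and 2.16 times in sham hearts. The ratio averaged 1.69 ± 0.199 in OFT-banded hearts, against 2.09 ± 0.0805 in sham hearts (± SD of 3 hearts), a log2 difference of -0.31, with no overlap between the groups (p = 0.1 in a two-sided exact permutation test, its smallest value). This was the 1 ratio of 8 whose groups did not overlap, and the only one that holds IRX4. By itself IRX4 differed by -0.36 and TBX5 by -0.04 in log2, so the ratio largely restates the difference of IRX4. Adjusted over the 8 ratios no exact p of this size can pass.

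TBX3 stood at 0.0175, 0.0226 and 0.0202 of the NKX2-5 level in OFT-banded hearts, against 0.0116, 0.0178 and 0.0155 in sham hearts. Hearts 6 and 48 overlapped narrowly here (two-sided exact permutation p = 0.2). GATA5 was 10.2, 9.61 and 6.58 times as abundant as GATA6 in OFT-banded hearts, against 5.83, 6.14 and 7.62 times in sham hearts (two-sided exact permutation p = 0.2). The ratio of TBX5 to TBX20 ranged from 7.36 in heart 42 to 30.6 in heart 6, with heart 38 at 23.2, so that it followed the hearts and not the groups. The ratios of GATA4 to GATA6, of GATA5 to GATA4, of TBX20 to NKX2-5 and of TBX18 to TBX20 overlapped too (two-sided exact permutation p = 0.2 to 0.5).

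**Figure D4:**
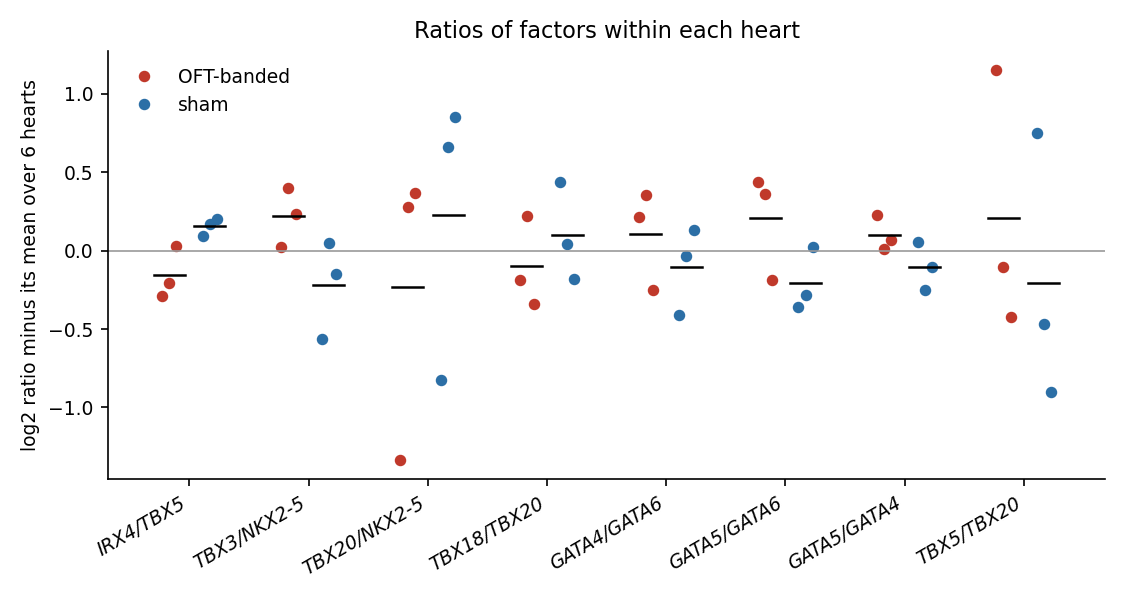
Log2 ratio of factor pairs within each heart, minus its mean over the 6 hearts, with OFT-banded hearts in red on the left, sham hearts in blue on the right and group means as black bars. The ratio of IRX4 to TBX5 is the one without overlap between the groups, and ratios with TBX20 spread widely in both.

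Among relatives of the factors with a row, all but IRX1 stayed at or below 6.97 RPKM in every heart. Of 5 other T-box genes only brachyury was tested, and it did not exceed 1.52 RPKM, while TBX4, TBX6, TBX19 and TBX22 stayed at or below 0.22 RPKM in every heart. GATA2, a factor of blood and endothelial cells, was at 1.58, 2.16 and 3.11 RPKM in OFT-banded hearts and 2.50, 4.5 and 6.97 RPKM in sham hearts, with heart 42 highest. GATA3, which acts in cushion and neural tissue among others, was at 1.36, 1.6 and 1.48 RPKM in OFT-banded hearts and 1.86, 1.95 and 2.05 RPKM in sham hearts, without overlap. NKX2-6, a relative of NKX2-5 in the pharynx and outflow region of the mouse, was at 0.52, 0.78 and 0.59 RPKM in OFT-banded hearts and 1.47, 1.12 and 1.58 RPKM in sham hearts, also without overlap. Its log2 difference was -0.55 (95% interval -1.03 to -0.08, unadjusted p = 0.0289 and adjusted p = 0.543 from limma). NKX2-6 reached the filter of a mean of 1 RPKM only through the sham hearts, at a mean of 1.39 RPKM, against 0.63 RPKM in OFT-banded hearts. Its difference is thus tied to that filter and lies near the floor, and nothing is concluded from it. NKX2-1 and NKX2-2, which mark foregut and neural tissue, were listed at 0 in all 6 hearts.

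Of 23 tested partners of these factors in heart transcription, 5 were higher and 18 lower by value, beside 36.8% and 63.2% of all tested transcripts. In limma 0 passed the adjusted test and 3 had an unadjusted p under 0.05, beside 8.57% of all tested transcripts. The median log2 difference was -0.19, or -0.43 when scaled to cardiomyocyte markers. Over all tested transcripts it was -0.07, or -0.31 with that scaling. HOPX, a homeodomain protein that modulates serum response factor, was at 26.39, 30.91 and 35.43 RPKM in OFT-banded hearts and 22.46, 22.64 and 12.83 RPKM in sham hearts, without overlap. CITED2, a coactivator needed for septation in the mouse, was at 11.80, 14.43 and 19.77 RPKM in OFT-banded hearts and 18.68, 27.82 and 31.51 RPKM in sham hearts, with hearts 17 and 38 overlapping. MEIS1, a homeobox cofactor, was at 16.9 ± 3.23 RPKM in OFT-banded hearts, against 25.5 ± 5.63 RPKM in sham hearts (± SD of 3 hearts), with hearts 11 and 38 overlapping. ANKRD1, a stretch-responsive cofactor of heart muscle, was at 29.13, 27.42 and 197.97 RPKM in OFT-banded hearts and 23.08, 19.91 and 11.65 RPKM in sham hearts, so that heart 17 carried most of its mean. HAND2 and ISL1, partners in the outflow tract that were named after their values were seen, lay at 352 ± 47.3 RPKM in OFT-banded hearts, against 324 ± 29.3 RPKM in sham hearts for HAND2 (± SD of 3 hearts) and at no more than 0.36 RPKM in any heart for ISL1.

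Of 21 tested genes of chamber muscle, the class of genes these factors control, 13 were higher and 8 lower by value. Of all tested transcripts 36.8% were higher and 63.2% lower. In limma 0 of the 21 passed and 3 had an unadjusted p under 0.05, beside 8.57% of all tested transcripts. The median log2 difference was 0.11, or -0.15 when scaled to cardiomyocyte markers, many of which are on this list. That scaling also lowered the median of all tested transcripts, from -0.07 to -0.31. The row named NPPB, a natriuretic peptide gene that the later RefSeq table lists as NPPA and that is a target of TBX5, NKX2-5 and GATA4 in the mouse, was at 2038.14, 3662.41 and 7026.81 RPKM in OFT-banded hearts and 2052.75, 1916.28 and 1123.99 RPKM in sham hearts. Hearts 6 and 38 overlapped, and the log2 difference was 1.19 (95% interval 0.14 to 2.24, adjusted p = 0.543 from limma). PLN, which encodes the calcium pump inhibitor phospholamban, was at 613.19, 617.41 and 740.95 RPKM in OFT-banded hearts and 472.72, 618.57 and 451.72 RPKM in sham hearts, with sham heart 48 inside the OFT-banded range. Its log2 difference was 0.36 (95% interval 0.03 to 0.69, adjusted p = 0.543 from limma). GJA5, a gap junction gene and a target of TBX5 in the mouse, was at 199.18, 212.10 and 169.55 RPKM in OFT-banded hearts and 211.60, 230.84 and 255.97 RPKM in sham hearts, a log2 difference of -0.27 (95% interval -0.53 to -0.00, adjusted p = 0.543 from limma).

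Of 11 tested genes of the conduction system and atrioventricular canal, the region of TBX3, 6 were higher and 5 lower by value. The median log2 difference was 0.19, or -0.05 when scaled to cardiomyocyte markers. Over all tested transcripts it was -0.07, or -0.31 with that scaling, and 36.8% were higher and 63.2% lower by value. In limma 0 of the 11 passed, with or without adjustment, beside 8.57% of all tested transcripts at an unadjusted p under 0.05. CACNA1D, a calcium channel of pacemaker cells in the mouse, was at 3.72, 4.25 and 4.32 RPKM in OFT-banded hearts and 4.67, 5.5 and 6.65 RPKM in sham hearts, without overlap (adjusted p = 0.543 from limma). ID3 and ID1, targets of BMP signals that hold back differentiation, were at 94.0 ± 20.8 and 249.8 ± 47.1 RPKM in OFT-banded hearts, against 74.7 ± 4.59 and 204.8 ± 25.6 RPKM in sham hearts (± SD of 3 hearts), with overlap in both. BMP2, a signal of the canal, was at 42.21, 49.90 and 38.69 RPKM in OFT-banded hearts and 41.72, 34.06 and 35.32 RPKM in sham hearts. Of 13 tested genes of the outflow tract and second heart field 6 were higher and 7 lower (median -0.17, or -0.42 when scaled to cardiomyocyte markers), among them FGFR1, a growth factor receptor, at 47.6 ± 3.44 RPKM in OFT-banded hearts, against 56.2 ± 3.18 RPKM in sham hearts (± SD of 3 hearts), without overlap. WNT5A, a secreted signal of the outflow region, was at 14.8 ± 3.46 RPKM in OFT-banded hearts, against 23.8 ± 9.64 RPKM in sham hearts (± SD of 3 hearts), with overlap. Of 7 tested epicardial genes other than TBX18, 2 were higher and 5 lower (median -0.07, or -0.33 when scaled to cardiomyocyte markers). SCX, a factor of epicardial and tendon precursors, was at 7.99 ± 0.629 RPKM in OFT-banded hearts, against 5.43 ± 1.78 RPKM in sham hearts (± SD of 3 hearts), narrowly without overlap. TCF21, an epicardial factor, was at 186 ± 6.37 RPKM in OFT-banded hearts, against 162 ± 21.6 RPKM in sham hearts (± SD of 3 hearts). Of 18 tested cushion genes 11 were higher and 7 lower (median 0.09, or -0.18 when scaled to cardiomyocyte markers), with FN1, fibronectin, at 275 ± 47.0 RPKM in OFT-banded hearts, against 352 ± 6.06 RPKM in sham hearts (± SD of 3 hearts). TWIST1, a factor of cushion mesenchyme, was at 16.1 ± 0.736 RPKM in OFT-banded hearts, against 12.8 ± 1.91 RPKM in sham hearts (± SD of 3 hearts), without overlap. In limma 0 genes of these 3 lists passed the adjusted test. An unadjusted p under 0.05 was found for 1 gene of each, beside 8.57% of all tested transcripts. Their counts by value stand beside the same 36.8% higher and 63.2% lower of all tested transcripts.

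**Figure D5:**
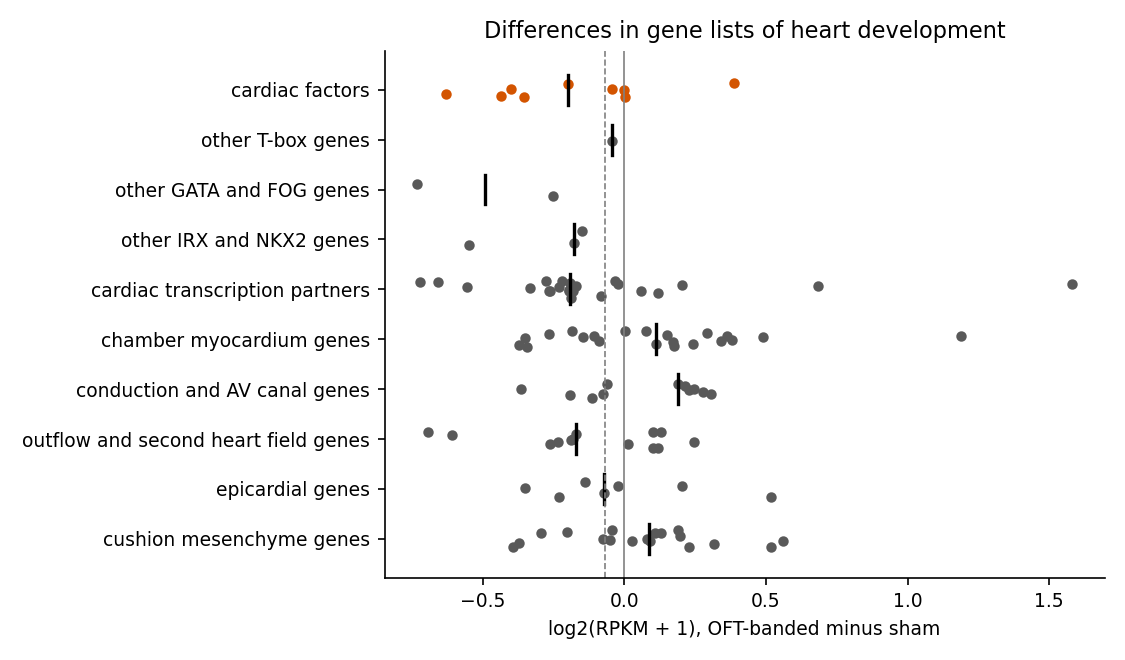
Difference in log2(RPKM + 1) between OFT-banded and sham hearts for the 9 factors (orange) and for tested genes of other lists (grey), with the median of each list as a black bar, 0 as a solid line and the median of all tested transcripts, -0.07, as a dashed line. No gene shown passed the adjusted test, and the medians of the lists lie between -0.49 and 0.19. Scaling to cardiomyocyte markers turns the chamber, conduction and cushion medians below 0. It also lowers the median of all tested transcripts to -0.31.

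Marker sums of some other cell types in the heart differed between the groups. The summed RPKM of 12 cardiomyocyte markers was 58195 to 61349 in OFT-banded hearts and 42125 to 53945 in sham hearts. By value 8 were higher and 4 lower, beside 36.8% and 63.2% of all tested transcripts. The summed RPKM of 15 red blood cell markers was 6292 to 12381 in OFT-banded hearts and 16487 to 42015 in sham hearts. Of the 11 tested, 10 were lower, beside 63.2% of all tested transcripts, and HBAA and HBZ were near 0 in every heart. Globin genes held 0.842% to 1.67% of all summed RPKM in OFT-banded hearts and 2.26% to 5.80% in sham hearts. Globin RNA was depleted before sequencing, so the red blood cell sum also reflects what depletion left. Blood content was not measured apart from this. Endothelial markers overlapped, at 435 to 482 RPKM in OFT-banded and 385 to 496 RPKM in sham hearts, as did those of smooth muscle, at 282 to 430 RPKM in OFT-banded and 238 to 287 RPKM in sham hearts. Summed liver markers were at 341 to 495 RPKM in OFT-banded and 207 to 414 RPKM in sham hearts, with FGA and TTR near 0 in all 6 hearts. Markers of neural crest and neurons summed to 43.5 to 50.7 RPKM in OFT-banded and 49.3 to 54.1 RPKM in sham hearts, with TFAP2B near 0. Lung and foregut markers summed to 10.5 to 12.9 RPKM in OFT-banded and 11.2 to 14.4 RPKM in sham hearts, with FOXA2 and NKX2-1 near 0. Macrophage and other blood cell markers overlapped as well, at 50.2 to 76.6 RPKM in OFT-banded and 55.9 to 82.7 RPKM in sham hearts. Scaled to the cardiomyocyte markers, the median of all tested transcripts shifted by -0.25. The TBX3 groups then overlapped, at a log2 difference of 0.15. Relative to that median IRX4 was at -0.31 and TBX3 at 0.46, beside -0.29 and 0.45 in the fit as reported. A scaling moves all transcripts of a heart alike, so these relative values could hardly change. With the red blood cell markers as a covariate, IRX4 was at -0.31, TBX3 at 0.48 and GATA4 at -0.00, while TBX18 and TBX20 turned to 0.052 and 0.52. The covariate, the mean log2 level of these markers, was 4.69, 5.13 and 5.58 in OFT-banded hearts, against values of 5.22, 6.08 and 6.79 in sham hearts, with hearts 17 and 38 overlapping. The part of these cell types in the results was not tested.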

How the data were processed

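Per the paper and the labels, globin RNA was depleted and strand-specific paired-end libraries were sequenced. Scythe and sickle trimmed the reads, TopHat placed them on galGal4, and HTSeq produced counts; versions are not given in the sources used here. The authors deposited RPKM values (the paper writes FPKM), 1 per RefSeq transcript and heart. GATA4, GATA5 and GATA6 have further curated transcripts in the GRCg7b gene table, which the deposited rows do not separate. Columns name the group and a heart number that no label gives, so hearts were grouped by column name.

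Values were tested as log2(RPKM + 1) by limma (version 3.58.1, R 4.3.3; trended prior variance) on transcripts whose mean reached 1 RPKM. On the log2(RPKM + 1) scale, differences of low genes come out too small. Exact permutation tests, ratios and distances were computed in Python 3.11.15. Depth came from microRNA rows of known length, where at least 97.1% of low values were whole reads within 0.1 of a read; the step of heart 42 was halved because nearly all its values were even. The fit was tested on simulated data. The limma p-values set each group difference against the spread between hearts of a group, moderated over all tested transcripts.

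Members, lists and tests were chosen with earlier results of these data known. Named genes are the factors, the 2 to 4 genes of each list with the smallest p (the list of other T-box genes had 1 tested gene), and the 3 transcripts closest to IRX4 and TBX3, with the exceptions marked; 1 of these transcripts is not reported here. The alternatives changed the pseudocount (0.1), the filter (none, or a mean of 5 RPKM), the scaling (TPM, median ratio, without globin genes, to cardiomyocyte markers), the trend or robust moderation, added red blood cell markers as a covariate, or left out each heart in turn. Added once the values were known were the first principal component as a covariate and hearts 6 and 42 left out together.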

Additional observations from a re-analysis of the deposited data

How the results depend on the processing

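No transcript and no factor passed the adjusted test under any of the 18 alternatives, nor did a listed pathway gene under the 7 tried on the lists. IRX4 was lower and TBX3 higher in all 18, but many of these could not turn the sign. Filters and moderation leave the difference of every factor unchanged. Leaving hearts out cannot turn the sign of a factor whose groups do not overlap. The number of factors without overlap between the groups was 2 as reported, 4 when scaled to cardiomyocyte markers, 4 with hearts 6 and 42 left out together and between 2 and 5 when 1 heart was left out, the most without heart 38. The share of all tested transcripts without overlap, 16.3% as reported, was not counted for these alternatives. Changes in the count of factors are thus not a result about the factors. Scaling to cardiomyocyte markers lowered the median of all tested transcripts to -0.31. The number of ratios without overlap was 1 as reported and between 2 and 4 when 1 heart was left out. Fewer hearts overlap less often. Transcripts with an unadjusted p under 0.05 numbered 405, against 912 when scaled to cardiomyocyte markers (28 higher, 884 lower), 649 without heart 38 and 195 without heart 42; of 417 without globin genes 94 were higher, and of 272 with red blood cell markers as a covariate 156.

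Signs turned for factors near 0 and for those that varied most. GATA5 was at -0.0317 with TPM, -0.0681 without globin genes, -0.26 when scaled to cardiomyocyte markers, and between -0.0476 and 0.0486 without 1 heart. NKX2-5 was at 0.0632 with median-ratio scaling and between -0.1835 and 0.0958 without 1 heart. TBX5 was at 0.0205 with median-ratio scaling and between -0.1448 and 0.055 without 1 heart. TBX20 was at 0.52 with red blood cell markers as a covariate, 0.23 with the first principal component and 0.24 with hearts 6 and 42 left out together, and TBX18 was at 0.0521 with red blood cell markers. The cause was not tested. The transcripts named as closest to IRX4 and TBX3 were the same after median-ratio scaling. No paired analysis was possible because OFT-banded and sham hearts came from different embryos, and the paper describes no pairing between them. The columns carry heart numbers that are not the replicate numbers of the labels. Counting error was small beside the spread between hearts for TBX18 and TBX20, and for TBX3 it was up to 7.95% for a transcript of 1 kilobase.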
